A study of Mus musculus with 60 samples.

Results

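The peaks of HA-tagged histone H3 carrying cysteine in place of arginine 17 (H3R17C) were compared with those of HA-tagged wild-type H3 (H3WT), as mapped by CUT&RUN with an anti-HA antibody. The comparison took in every anti-HA sample of both genotypes, 6 of the 60 samples of the series. The cells were C3H 10T1/2, a line of mouse mesenchymal progenitors, and each genotype was a stable line selected with puromycin as a pool after lentiviral transfer of human H3.1 with HA and FLAG tags under an EF1 promoter. Every line, the controls included, kept its own H3 genes, so tagged H3 was present alongside untagged H3, and the anti-HA signal showed the tagged part. Replicates 1 and 2 had peak lists with identical values in both genotypes and were counted once, which left 2 independent lists for H3WT and 2 for H3R17C. The 9 anti-HA samples of H3R2C, H3R8C and H3R26C, made the same way with cysteine at another tail arginine, gave 6 further independent lists in which the same values were read.

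Histone H3 forms the core of the nucleosome together with H4, H2A and H2B, and its N-terminal tail protrudes and carries the modifications that regulate transcription. Arginine 17 of this tail is a substrate of CARM1, a coactivator methyltransferase whose asymmetric dimethylation of the residue is associated with gene activation, and cysteine cannot accept that mark. H3.1 is deposited on newly replicated DNA by the chaperone CAF-1 across the genome, so a map of tagged H3.1 reports on where the histone is held and on how well the chromatin is cut. CUT&RUN releases DNA next to the antibody with a tethered nuclease, and SEACR, the caller used by the authors, joins neighbouring covered bases into blocks and keeps the blocks with the most signal.

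The H3WT list of replicates 1 and 2 stood apart from all others. It held 15344 peaks with a median width of 10.7 kb, which covered 8.10% of the genome, while H3WT replicate 3 held 37907 peaks of 2.65 kb that covered 5.11%. The lists of H3R17C were close to each other, with 52083 and 50122 peaks, both of 0.85 kb in median width, which covered 1.81% and 1.77%. The weakest peak kept in a list had a total signal (coverage summed over its bases) of 43200 and 6300 in H3WT and of 1450 in both H3R17C lists, so the lists reached different depths of weak signal. The study also lists more anti-HA reads for every H3WT replicate than for any H3R17C replicate, and the signal is not scaled for depth. Peak width, read depth and the genotype therefore cannot be told apart in these 4 lists. Most measures are given over the 15344 peaks with the highest total signal in each list (top peaks), the number set by the smallest list. Even then the median top peak was 10.7 and 4.3 kb wide in H3WT and 1.15 kb in both H3R17C lists.

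The clearest difference lay in how the peaks were distributed over chromosomes. Chromosomes 14 and 13 held a smaller share of the H3R17C peaks than of the H3WT peaks, and chromosomes 8, 11 and X held a larger share. The share of all top peaks on chromosome 14 was 5.52% and 4.68% in H3WT and 2.02% and 2.40% in H3R17C, a ratio of 0.433 that passed limma over the 10 anti-HA lists (log2 difference -1.21, SE 0.21, adjusted p = 7.24e-06). The groups did not overlap, and every list of the other mutants, from 3.71% to 4.69%, also lay above both H3R17C lists. On chromosome 13 the share was 4.13% and 3.22% in H3WT and 1.80% and 1.39% in H3R17C, with a log2 difference of -1.20 (SE 0.23, adjusted p = 2.19e-05). The other mutants spanned 0.816% to 2.75% on that chromosome, so the H3R17C values lay inside their range.

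Chromosome 8 moved the opposite way. It carried 6.58% and 8.31% of the top peaks of H3WT and 10.1% and 11.6% of those of H3R17C (log2 difference 0.55, SE 0.21, adjusted p = 0.0318). The highest list of another mutant reached 9.19%, below both H3R17C lists. Chromosome 11 carried the most top peaks in both genotypes, with 8.69% and 12.2% in H3WT and 15.7% and 17.5% in H3R17C (0.68, SE 0.21, adjusted p = 0.011). The X chromosome carried 2.09% and 1.59% in H3WT and 3.39% and 2.55% in H3R17C (0.69, SE 0.22, adjusted p = 0.011). Chromosomes 9 and 7 had a smaller share in H3R17C, with log2 differences of -0.71 (SE 0.21, adjusted p = 0.00991) and -0.64 (SE 0.21, adjusted p = 0.011). In all, 4 of the 20 chromosomes had a lower share (20%) and 3 a higher one (15%), and because shares add up to the whole list, a lower share on one chromosome raises the others. The fit also drew the spread of each chromosome toward that of all 20, which came from the same lists. Its p-values rest on that pooling and may be too small.

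Of these 7 chromosomes, 13 and 14 passed the threshold in every alternative fit. Without the broad H3WT list (replicates 1 and 2) the adjusted p was 0.0426 for chromosome 13 and 0.00445 for chromosome 14, but 0.261 for chromosome 8, 0.231 for chromosome 11, 0.126 for chromosome 7 and 0.0614 for chromosome 9. Chromosome 7 also lost its call without either H3R17C list (0.0789 and 0.131) and with all peaks (0.0723), chromosome 9 without H3R17C replicates 1 and 2 (0.0909), and chromosome 11 without H3R17C replicate 3 (0.131) and by share of covered bases (0.0637). The call on chromosome 8 was also lost without H3R17C replicates 1 and 2 (0.0801) and without H3R17C replicate 3 (0.264). Without H3WT replicate 3 the X chromosome was at 0.181, and without H3R17C replicates 1 and 2 it was at 0.201.

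**Figure D1:**
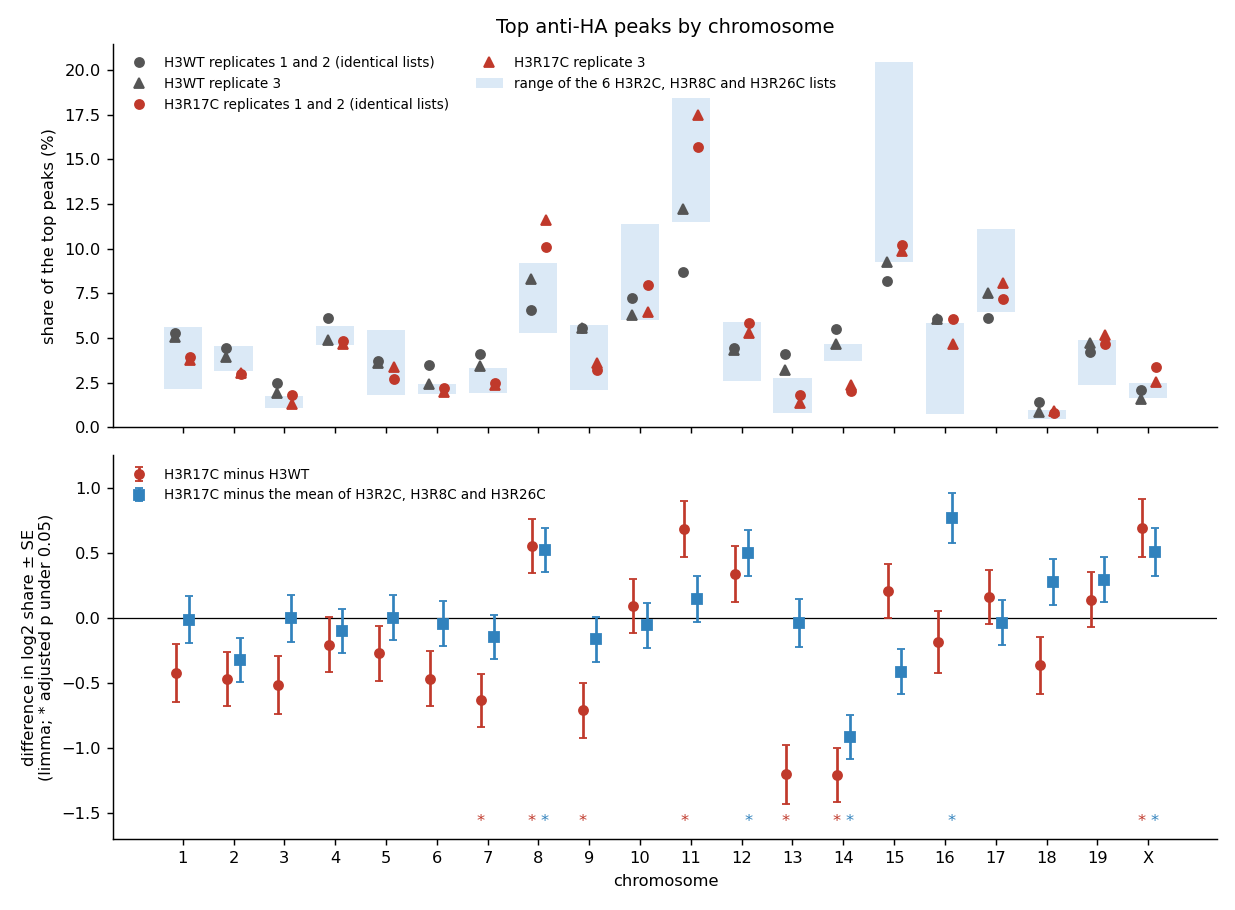
Top anti-HA peaks by chromosome. The upper panel plots the share of the 15344 top peaks (%) on each chromosome in the 4 lists (points) with the range of the 6 lists of the other mutants (bars), and the lower panel plots the difference in log2 share with its SE from limma, with stars for an adjusted p under 0.05. Both H3R17C points lie below the bar on chromosome 14 and above it on chromosome 8, whereas on chromosome 13 they lie inside it and below the H3WT points.

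Against the mean of H3R2C, H3R8C and H3R26C by limma, a fit chosen after the data were seen, 1 chromosome was lower in H3R17C (5%) and 4 were higher (20%). The lower one was chromosome 14, with a log2 difference of -0.92 (SE 0.17, adjusted p = 3.23e-05), and it passed without each mutant list in turn. The higher ones were chromosomes 16 (0.77, adjusted p = 0.00201), 8 (0.52, adjusted p = 0.0232), 12 (0.50, adjusted p = 0.0288) and X (0.51, adjusted p = 0.0305), and their number was 0 without H3R17C replicates 1 and 2, 2 without H3R17C replicate 3 or H3R26C replicates 1 and 2, and 1 without either H3R8C list, while 3 chromosomes were lower without H3R2C replicates 1 and 2. Chromosome 13 differed from the other mutants by -0.04 (SE 0.19, adjusted p = 0.973). The exact permutation tests of autosomal shares against the same mutants were planned for chromosomes 8 and 13, and chromosome 14 was added after its value was seen. By share of autosomal top peaks alone, H3R17C had 10.4% and 11.9% on chromosome 8, against 5.43% to 9.36% in the other mutants, and the exact permutation test gave p = 0.0714 (two-sided), the smallest it can give with 2 lists against 6. On chromosome 14 H3R17C had 2.09% and 2.46% against 3.77% to 4.81%, with the same p. On chromosome 13 the exact permutation test gave p = 0.786. Adjusted over the 8 measures of this family, these values were 0.286, 0.286 and 0.98.

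With 2 lists against 2, the exact permutation test cannot give a p under 0.333, so against H3WT the autosomal shares are given as values. Chromosome 8 held 6.73% and 8.44% of autosomal top peaks in H3WT and was 3.61 percentage points higher on average in H3R17C (p = 0.333, exact permutation test). Chromosome 13 held 4.21% and 3.27% in H3WT and 1.86% and 1.43% in H3R17C, a difference of -2.10 points. Chromosome 14 held 5.64% and 4.76% in H3WT, and the difference was -2.92 points. Over all peaks the same order held, with 6.73% and 7.54% against 9.05% and 10.1% on chromosome 8, 4.21% and 3.87% against 2.26% and 2.13% on chromosome 13, and 5.64% and 5.42% against 2.84% and 3.17% on chromosome 14. For reference, chromosomes 8, 13 and 14 make up 5.25%, 4.89% and 5.07% of the autosomal length. When each list was taken down to the same covered length (42.9 Mb) in place of the same number of peaks, chromosome 8 held 8.84% and 10.2% in H3WT and 8.53% and 10.3% in H3R17C, a difference of -0.108 points, while chromosome 14 held 6.63% and 4.13% against 2.86% and 3.15%.

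The peaks of H3K27me3, the mark set by Polycomb Repressive Complex 2, offered a second antibody on the same lines. Its autosomal peaks on chromosome 14 made up 5.89% and 5.47% of the H3WT lists and 4.82% of the H3R17C list that replicates 2 and 3 shared. On chromosome 13 these shares were 4.33% and 4.31% in H3WT and 3.43% in H3R17C, and on chromosome 8 they were 6.19% and 6.24% against 6.68%. The H3K27me3 shares thus lay on the same side as the anti-HA shares on all 3 chromosomes, by smaller amounts, with 1 independent H3R17C list and no test. Each genotype was a single pooled line, and the number of copies of each chromosome in the lines was not measured here, so a difference between the lines themselves and one of the tagged histone cannot be told apart. The H3K27me3 list of H3R17C replicate 1 was left out because its name gave another mark than its label.

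The differences ran along whole chromosomes in part and along sections in others. The autosomes were divided into 258 segments of 10 Mb, and in 39 of them (15.1%) both H3R17C lists had more top peaks per 1000 than both H3WT lists, while in 78 (30.2%) both had fewer. On chromosome 14, 9 of 13 segments were lower and none was higher, and 8 of the lower ones ran without a break from its start to 80 Mb. The ninth lay at its end, from 120 Mb, with 3.06 and 2.92 top peaks per 1000 in H3WT and 0.473 and 0.67 in H3R17C. In the segment from 60 to 70 Mb, H3WT had 9.06 and 6.03 top peaks per 1000 and H3R17C had 1.55 and 2.68. On chromosome 13, 7 of 13 segments were lower and none was higher, with 4.99 and 3.45 against 0.946 and 1.14 per 1000 from 50 to 60 Mb. On chromosome 8, 7 of 13 segments were higher and none was lower, and the segment from 20 to 30 Mb had 5.73 and 5.11 per 1000 in H3WT against 14.6 and 14.2 in H3R17C. Chromosome 11 had 5 higher segments of 13, which were the last 5, from 80 Mb to its end. From 110 to 120 Mb it held 16.2 and 37.2 top peaks per 1000 in H3WT and 52.3 and 57.3 in H3R17C.

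The signal of 10 kb bins was read from the same peaks as the chromosome shares, so it is no independent reading of them. A bin was tested where a peak was called in both H3WT lists (21932 bins) or in both H3R17C lists (17500). Of these 28029 bins, 910 were lower in H3R17C (3.25%) and 891 were higher (3.18%) by limma. Among the bins tested on chromosome 13, 11.8% were lower and 1.40% higher, and on chromosome 14 6.58% were lower and 1.01% higher. Chromosome 8 had 1.66% lower and 5.40% higher, chromosome 12 had 1.48% and 5.36%, and the X chromosome had 4.79% and 13.2%. On chromosome 11, whose share was higher, 1.09% of bins were lower and 2.21% higher, both below the figures over all bins, and on chromosome 1, whose share was not called, 6.76% were lower and 2.93% higher. Of the lower bins 96.6% had no peak in either H3R17C list, and of the higher bins 82.3% had none in either H3WT list, so most calls were between a called peak and none. Such bins were tested only through the genotype that had the peak. The counts and the shares by chromosome follow in part from that choice and are given as a description. Of the 5271 bins with a peak in all 10 lists, 4 were lower and 130 higher. The calls depended on the fit, since limma called 0 bins in each direction with quantile normalization (unadjusted p under 0.05 for 2084 lower and 2707 higher), over bins called in any list (2922 and 2049), without a trend (3551 and 2566) and with H3WT and H3R17C alone (3344 and 3297). They also depended on the lists, since without H3WT replicates 1 and 2 there were 2884 lower and 629 higher bins, without H3WT replicate 3 there were 5199 and 1039, without H3R17C replicates 1 and 2 there were 850 and 5338, and without H3R17C replicate 3 there were 1139 and 7855.

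The part of the genome touched by the peaks was read next, first by the share that reached a gene start. Of the top peaks, 31.7% and 20.6% came within 1 kb of a gene start in H3WT and 8.71% and 11.2% did in H3R17C, a mean difference of -16.2 percentage points (SD of the H3WT lists 7.87, of the H3R17C lists 1.75, p = 0.333, exact permutation test). Both H3R17C lists lay below both H3WT lists. The other mutants spanned 9.30% to 17.8% (p = 0.143, exact permutation test). A wide peak touches more start windows than a narrow one, and when only the centre of each peak was placed, 4.99% and 6.40% of the H3WT centres and 5.59% and 7.29% of the H3R17C centres fell in a start window. The difference then turned to 0.746 points.

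Peaks over gene bodies that touched no start made up 41.5% and 47.3% in H3WT and 46.9% and 51.2% in H3R17C, and their ranges overlapped. By centres they made up 55.5% and 54.3% against 47.7% and 52.8%, so the difference of 4.67 points became -4.64. Intergenic peaks made up 26.8% and 32.2% in H3WT and 44.4% and 37.6% in H3R17C, 11.5 points more on average (p = 0.333, exact permutation test), and by centres 39.5% and 39.3% against 46.7% and 39.9%. The other mutants had 34.3% to 44.4% of their top peaks between genes.

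**Figure D2:**
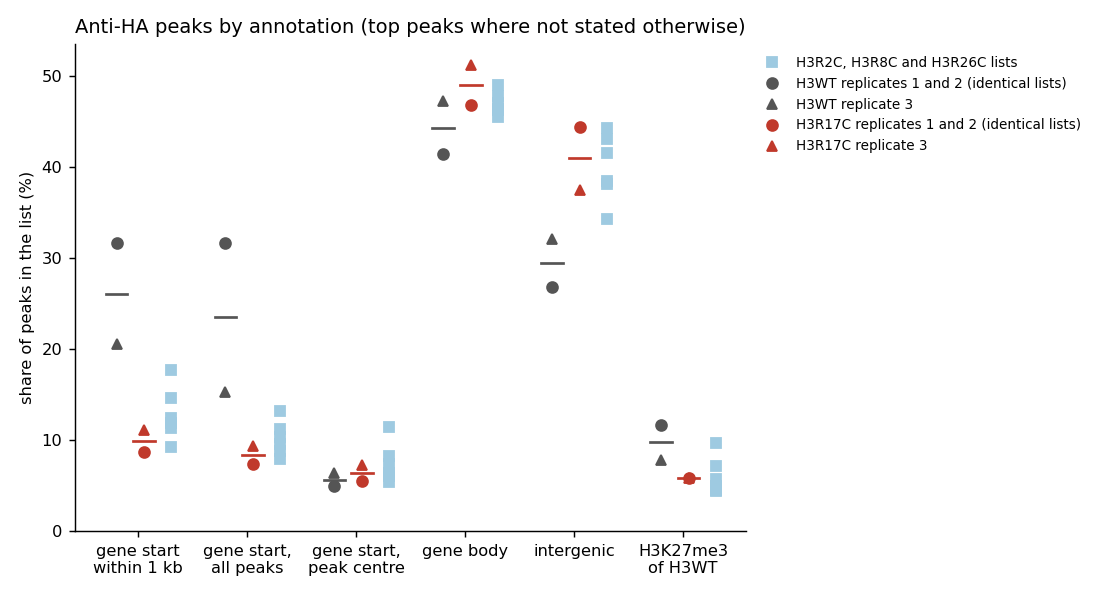
Share of anti-HA peaks (%) by annotation in each list, with points for the 4 lists of H3WT and H3R17C, short lines for their means and squares for the other mutants. The H3WT points stand above the H3R17C points at gene starts when any overlap counts (31.7% and 20.6% against 8.71% and 11.2%), and the genotypes overlap when only peak centres are placed.

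Regions with H3K27me3 in both H3WT lists covered 2.83% of the genome. Top anti-HA peaks overlapped them in 11.7% and 7.87% of cases in H3WT and in 5.90% and 5.91% in H3R17C (p = 0.333, exact permutation test), and the other mutants spanned 4.40% to 9.68%. By peak centres the shares were 5.85% and 5.42% against 5.34% and 5.29%. The median GC content within 250 bases of the centre was 45.2% and 47.4% in H3WT and 44.8% and 48.2% in H3R17C, so replicates of a genotype differed by more than the genotypes did.

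Of 21755 protein-coding genes, 3571 and 1990 had a top peak at their start in H3WT and 628 and 908 had one in H3R17C. Of these, 182 had it in all 4 lists. A top peak in both H3R17C lists and neither H3WT list was found at 14 gene starts (0.0644% of protein-coding genes), and the reverse at 814 (3.74%). With all peaks these counts were 81 (0.372%) and 755 (3.47%). The 14 became 28 without H3WT replicates 1 and 2, 27 without H3WT replicate 3, 206 without H3R17C replicates 1 and 2 and 118 without H3R17C replicate 3, and the 814 became 2718 without H3WT replicate 3. Leaving out a list loosens the rule of both lists and neither, so such counts can only stay equal or rise. At equal covered length the order turned round, with 289 starts for H3R17C and 86 for H3WT.

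The 14 starts with a top peak in both H3R17C lists alone belonged to genes of many kinds. They were Olfml2a (an olfactomedin-like secreted protein), Nek4 (a NIMA-related kinase), Def6, Pkd1 (polycystin-1, mutated in polycystic kidney disease), Asmt (the last enzyme of melatonin synthesis), Gm4302, Copz2 (a coatomer subunit), Rdh11 (a retinol dehydrogenase), Mpp2 (a membrane scaffold protein), Ly6g5c, Eral1 (a GTPase of mitochondrial ribosome assembly), Gm2244, Gm49368 and Itgam (the CD11b integrin of myeloid cells). Of these, 5 had no peak of any strength in the H3WT lists, namely Pkd1, Asmt, Gm4302, Rdh11 and Mpp2, and 4 had no top peak in any list of the other mutants, namely Def6, Asmt, Gm49368 and Itgam. Asmt, on chromosome X, met both conditions. The starts of Gm49368 and Itgam lie next to each other on chromosome 7 and their windows overlap, so they are not separate positions.

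Signal within a start window is given below as scaled signal, the total signal inside the window divided by the median over the 154 windows called in every anti-HA list. The start of Olfml2a (chr2:38931978-38963753) had a scaled signal of 0 and 0.62 in H3WT and of 1.37 and 1.14 in H3R17C, and the highest other mutant reached 0.734. Asmt (chrX:170672644-170678054) had 0 in both H3WT lists and 0.834 and 0.656 in H3R17C, and the highest other mutant reached 0.435. Gm4302 had 0 in both H3WT lists, 1.10 and 0.62 in H3R17C and 0.999 and 0.878 in H3R2C. Pkd1 had 0 in both H3WT lists and 0.758 and 0.857 in H3R17C. The other mutants had a peak there in 5 lists, the highest at 1.02 in H3R2C replicate 3. Nek4 had 0 and 0.721 in H3WT and 0.834 and 0.872 in H3R17C, so its H3WT lists lay further apart than the genotypes did at their nearest. Its highest other mutant reached 0.85. These genes were chosen by this contrast, so their values are a description with no test.

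Among the 814 starts of the opposite kind, 444 had no peak at all in the H3R17C lists and 279 of the 814 had no top peak in any list of the other mutants. The 10 with the highest lower value of the H3WT lists were Gm4981, Smim5, Foxj1 (a regulator of motile cilia), Slc38a10 (an amino acid transporter), Engase (a cytosolic glycosidase acting on N-glycans), Endou (an endoribonuclease), Myo15b (a myosin-like gene), Zfp985 (a zinc finger gene), Mfsd5 (a membrane transporter) and Wfikkn2 (a secreted inhibitor of myostatin). Of the 10, 6 lie on chromosome 11, which also held 394 of the 2297 starts tested by limma (below), and this count was not tested. Gm4981 had scaled signals of 1.87 and 1.09 in H3WT and 0 in both H3R17C lists. Myo15b had 1.00 and 0.978 in H3WT and 0 in both H3R17C lists. Slc38a10 had 1.04 in both H3WT lists and still 0.55 and 0.517 in H3R17C, where its peaks were too weak to be top peaks. All 10 had a top peak in at least 1 list of the other mutants. They too were chosen by this contrast, and their values carry no test.

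The promoters below are shown for the starts on which these comparisons turn. They were taken from RefSeq (GRCm38.p6), run 5′ to 3′ on the strand of the gene from 250 bases before to 50 after its start, and have each CpG dinucleotide in capitals. Olfml2a (chr2:38931730-38932029, plus strand) and Nek4 (chr14:30951127-30951426, plus strand) had a top peak in both H3R17C lists alone, Gm4981 (chr10:58236611-58236910, minus strand) and Slc38a10 (chr11:120151302-120151601, minus strand) in both H3WT lists alone, and Mt1 (chr8:94178839-94179138, plus strand) and Abhd2 (chr7:79273016-79273315, plus strand) were among the starts with the lowest limma p of those higher in H3R17C.
Olfml2a: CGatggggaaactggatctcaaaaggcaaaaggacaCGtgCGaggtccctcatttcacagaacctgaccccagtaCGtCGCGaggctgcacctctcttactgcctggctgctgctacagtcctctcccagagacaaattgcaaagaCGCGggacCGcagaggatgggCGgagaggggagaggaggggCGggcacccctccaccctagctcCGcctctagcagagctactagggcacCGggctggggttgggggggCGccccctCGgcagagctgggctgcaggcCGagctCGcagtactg
Nek4: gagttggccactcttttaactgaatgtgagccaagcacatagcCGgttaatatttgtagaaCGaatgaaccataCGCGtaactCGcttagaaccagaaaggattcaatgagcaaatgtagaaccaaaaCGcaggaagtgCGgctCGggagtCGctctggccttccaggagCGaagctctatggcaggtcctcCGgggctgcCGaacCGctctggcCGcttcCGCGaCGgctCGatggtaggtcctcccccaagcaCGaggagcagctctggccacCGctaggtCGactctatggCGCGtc
Gm4981: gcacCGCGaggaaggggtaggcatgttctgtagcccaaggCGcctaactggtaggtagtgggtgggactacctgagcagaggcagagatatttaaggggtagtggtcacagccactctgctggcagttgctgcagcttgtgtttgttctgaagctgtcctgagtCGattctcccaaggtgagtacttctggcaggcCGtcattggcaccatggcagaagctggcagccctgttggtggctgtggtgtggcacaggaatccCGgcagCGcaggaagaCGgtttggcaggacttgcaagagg
Slc38a10: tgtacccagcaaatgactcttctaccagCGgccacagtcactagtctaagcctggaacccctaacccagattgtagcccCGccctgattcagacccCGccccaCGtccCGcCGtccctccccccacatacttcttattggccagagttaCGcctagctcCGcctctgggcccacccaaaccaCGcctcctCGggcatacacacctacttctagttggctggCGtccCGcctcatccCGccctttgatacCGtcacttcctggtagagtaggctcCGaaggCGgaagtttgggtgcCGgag
Mt1: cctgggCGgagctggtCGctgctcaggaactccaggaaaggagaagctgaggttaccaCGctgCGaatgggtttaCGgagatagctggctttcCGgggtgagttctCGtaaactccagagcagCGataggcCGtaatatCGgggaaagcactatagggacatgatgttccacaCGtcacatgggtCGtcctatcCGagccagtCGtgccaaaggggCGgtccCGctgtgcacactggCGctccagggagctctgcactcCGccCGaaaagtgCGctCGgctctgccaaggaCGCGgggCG
Abhd2: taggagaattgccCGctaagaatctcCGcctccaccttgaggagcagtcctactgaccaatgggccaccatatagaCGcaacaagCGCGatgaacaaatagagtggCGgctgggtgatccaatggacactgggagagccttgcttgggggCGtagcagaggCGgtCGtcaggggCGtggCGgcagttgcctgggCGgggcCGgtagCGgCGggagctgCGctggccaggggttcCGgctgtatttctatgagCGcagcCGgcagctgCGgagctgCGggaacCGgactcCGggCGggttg

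These promoters held 17, 23, 8, 17, 24 and 24 CpG dinucleotides in that order (letters CG, the same on both strands). Over windows of the same length at GENCODE starts, the median was 7.5 CpG for the 14 starts of H3R17C, 13 for the 814 of H3WT, 7 for the 182 starts with a top peak in all 4 lists and 11 for all protein-coding genes. At least 10 CpG were present in 42.9%, 58.8% and 36.8% of these groups and in 53.9% of all promoters. The CpG content of the small group is given as a description.

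By limma, the signal at the start was lower in H3R17C for 357 of 2297 tested genes (15.5%) and higher for 36 (1.57%), and the median log2 difference over all tested genes was -0.94. A start was tested where a peak was called in both H3WT lists (2016 starts) or in both H3R17C lists (764), so most entered through H3WT, and the balance of lower to higher starts and the median follow in part from that choice and are given as a description. With quantile normalization 1 start was lower and 20 were higher, and over starts called in any list limma called 0 in each direction, with an unadjusted p under 0.05 for 652 lower and 75 higher. Of the lower starts 91.3% had no peak in either H3R17C list, and of the higher ones 86.1% had none in either H3WT list. Among the 154 windows with a peak in every list, limma called 0 in each direction, and an unadjusted p under 0.05 was reached by 3 lower and 8 higher windows. Without H3WT replicates 1 and 2 the counts were 602 lower and 28 higher, without H3WT replicate 3 they were 1071 and 48, without H3R17C replicates 1 and 2 they were 231 and 375, and without H3R17C replicate 3 they were 283 and 285.

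The 10 starts with the lowest p among the higher ones were at 0 in all 8 lists of the other 4 genotypes. They belonged to Spert, Mt1 (metallothionein 1, a metal-binding protein), Abhd2 (a lipid hydrolase), Olfr766-ps1 (a listed olfactory receptor pseudogene), Smim7, Rsl1d1 (a nucleolar protein of ribosome biogenesis), Gm3182, Rab13 (a GTPase of membrane traffic), Rps27 (a ribosomal protein) and Slc25a1 (the mitochondrial citrate carrier). Mt1 (chr8:94179082-94180327) had scaled signals of 0.409 and 0.443 in H3R17C (log2 difference 1.43, SE 0.11, adjusted p = 0.000197). Abhd2 (chr7:79273199-79365508) had 0.55 and 0.502 (1.63, SE 0.13, adjusted p = 0.000197). Rab13 and Rps27, whose starts lie next to each other on chromosome 3, shared the values 0.621 and 0.473. None of the 10 had a top peak in both H3R17C lists, so these were weak peaks, and a window at 0 in 8 of 10 lists has little spread, which favours it in a ranking by p. They were tested only because both H3R17C lists had a peak there, so their adjusted p follows in part from that choice. All 10 lost their call over starts called in any list (adjusted p = 0.178).

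The 10 lowest p among the lower starts followed the same pattern, with peaks in both H3WT lists and none in any of the 8 mutant lists. They belonged to Chst13 (a chondroitin sulfotransferase), Plekha6, Spdya (an activator of cyclin-dependent kinases), Lgals12 (a galectin of fat cells), Utp4 (a factor of ribosomal RNA processing), Mast4 (a kinase), Dbil5, Rab6b (a Golgi GTPase), Chtf8 (a subunit of a clamp loader in sister chromatid cohesion) and Slc45a3 (a membrane transporter). Slc45a3 had scaled signals of 0.597 and 0.595 in H3WT (log2 difference -1.76, SE 0.14, adjusted p = 0.000197), and Chst13 had 0.447 and 0.455 (-1.49, SE 0.12, adjusted p = 0.000197). All 10 lost their call with quantile normalization, where the log2 difference of Slc45a3 was -0.35 (limma adjusted p = 0.459), that of Chst13 -0.0079 (0.997) and that of Plekha6 0.057 (0.812). Over starts called in any list their adjusted p was 0.178 to 0.191. These starts were tested only because both H3WT lists had a peak there, so their adjusted p in the main fit follows in part from that choice. Utp4 and Chtf8 start next to each other on chromosome 8, and their windows overlap.

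**Figure D3:**
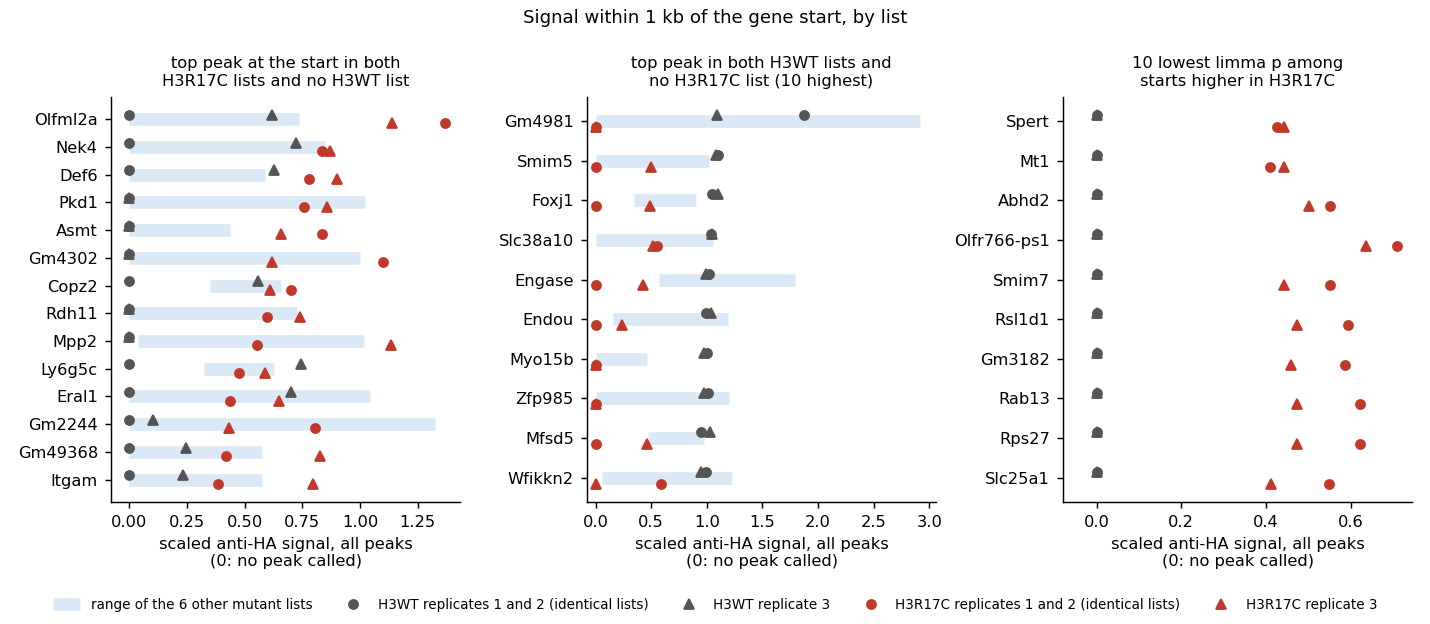
Scaled anti-HA signal within 1 kb of the gene start (horizontal axis, all peaks, 0 where no peak was called) for the 14 starts with a top peak in both H3R17C lists alone (left), 10 of the 814 starts of the opposite kind (middle) and the 10 starts with the lowest limma p among those higher in H3R17C (right). In the left panel the list of H3WT replicates 1 and 2 is at 0 throughout while H3WT replicate 3 often is not, and in the right panel all 8 lists other than H3R17C are at 0.

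Gene bodies were compared by whether any part of the gene was touched. Top peaks touched 6581 and 4246 protein-coding genes in H3WT and 3130 and 3440 in H3R17C, with 74 (0.34%) touched in both H3R17C lists and neither H3WT list and 907 (4.17%) the other way round. With all peaks the counts were 607 (2.79%) and 449 (2.06%), so their order depended on how deep the lists were read. The 74 became 227 without H3WT replicates 1 and 2, 142 without H3WT replicate 3, 414 without H3R17C replicates 1 and 2 and 431 without H3R17C replicate 3, and the 907 became 2968 without H3WT replicate 3 and 1611 without H3R17C replicate 3. Here too a list left out loosens the rule, so a rise was fixed in advance.

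Several long genes held many separate peaks. Of 7925 genes with a top peak in at least 1 of the 4 lists, 369 (4.66%) had more top peaks in both H3R17C lists than in both H3WT lists and 1223 (15.4%) had fewer. The genes below were chosen after their values were seen. Syn3, a synaptic vesicle protein (chr10:86055125-86498896), held 11 and 39 top peaks in H3WT and 68 and 56 in H3R17C. C130026I21Rik on chromosome 1 held 11 and 18 against 51 and 57. Sorbs2, a cytoskeletal adaptor (chr8:45507788-45827906), held 7 and 11 against 45 and 40, and Il34, a ligand of the CSF1 receptor (chr8:110741829-110805924), held 5 and 8 against 18 and 18. For these 4 genes the H3R17C lists lay above both H3WT lists and within the range of the other mutants.

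The neighbours Bend6 and Dst (dystonin, a cytoskeletal linker) on chromosome 1 held 2 and 3 against 17 and 18, and 3 and 16 against 25 and 26. Apoh, a phospholipid-binding plasma protein, and Dnah17, a dynein of the sperm tail, both on chromosome 11, held 5 and 7 against 17 and 17, and 2 and 8 against 17 and 29. Palm2 on chromosome 4 held 10 and 22 against 26 and 25. For these genes too the H3R17C lists lay within the range of the other mutants. The annotated model Gm20388 spans 4435 kb of chromosome 8 and held 132 and 300 in H3WT and 211 and 390 in H3R17C, so its lists overlapped. A broad H3WT peak can take the place of several narrow ones, and these counts were read from peaks whose median width differed between the genotypes as given above.

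Heatr3, a protein that escorts a ribosomal protein to the nucleus (chr8:88137855-88172027), held 2 top peaks in each H3R17C list and none in the other 8 lists. In the full lists it held 0 and 2 in H3WT and 5 and 7 in H3R17C. Eral1 on chromosome 11 held 2 in each H3R17C list, none in H3WT and at most 1 in the other mutants. In the opposite direction, Man1c1 (a mannosidase of the Golgi) held 5 top peaks in each H3WT list and none in H3R17C, and Fancc (a Fanconi anaemia protein, on chromosome 13) and Itgb5 (integrin beta 5) held 5 and 7 each. Cgnl1, a junction protein, held 7 and 3 in H3WT and none in any of the 8 mutant lists. Smad3, a mediator of TGF-beta signalling, held 3 in each H3WT list and none in H3R17C, where the full lists held 0 and 1. For the others the full H3R17C lists did hold weaker peaks, such as 3 and 5 in Man1c1 and 7 and 7 in Fancc.

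**Figure D4:**
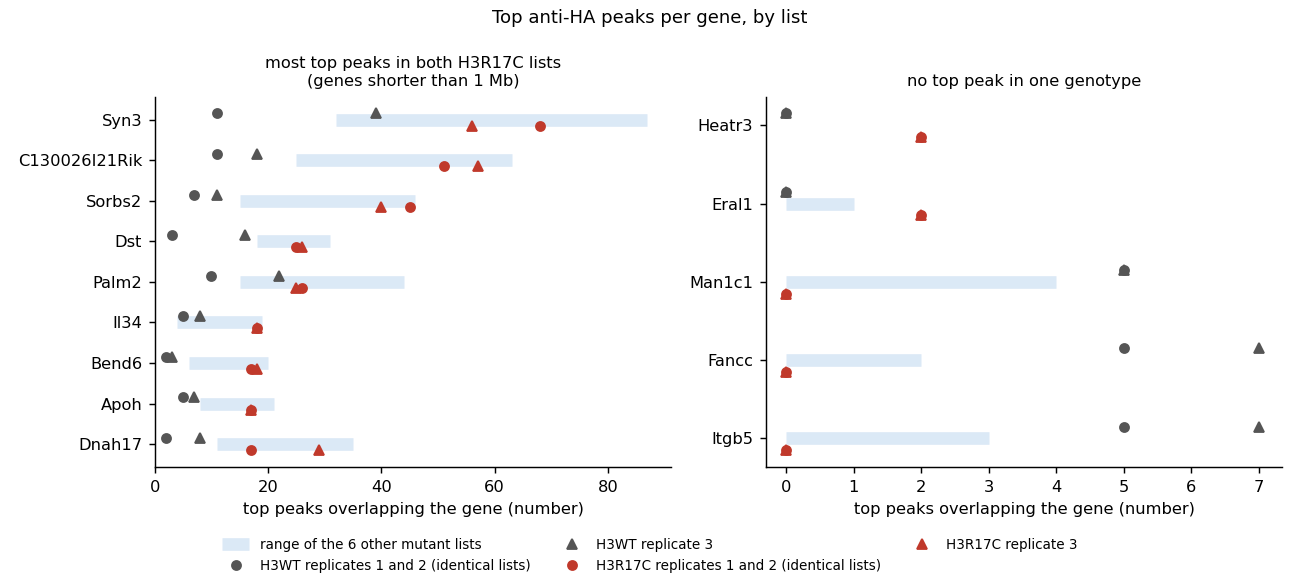
Number of top anti-HA peaks overlapping each gene, by list, with the range of the 6 lists of the other mutants as a pale bar. The left panel shows the genes under 1 Mb with the most top peaks in both H3R17C lists, and the right panel shows Heatr3 and Eral1 (none in H3WT) and the genes with at least 5 in both H3WT lists and none in H3R17C. Syn3 runs from 11 and 39 in H3WT to 68 and 56 in H3R17C.

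The strongest signal was the same in all lists and both genotypes. The 10 kb bin at chr2:98660001-98670000, which holds Gm10801 and Gm10800, ranked first in every list and took 21.8% and 26.2% of all peak signal in H3WT and 33.4% and 31.6% in H3R17C. The starts of Gm10800, Gm21738, Gm10801 and Gm11168 were among the 5 highest in both genotypes. At Gm10800 the scaled signal was 7141 and 13083 in H3WT and 18692 and 20203 in H3R17C (log2 difference 1.01, SE 0.45, limma adjusted p = 0.154). The share of this bin was higher in both H3R17C lists than in both H3WT lists, and the other mutants spanned 28.5% to 36.6%. The IgG samples were not read, so whether the signal of this bin and of these starts came from tagged H3 was not tested.

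Gene lists relevant to the cells and to the histone were read at the start windows. Of 16 genes expressed in mesenchymal cells, 4 and 2 had a top peak at the start in H3WT and 1 and 1 in H3R17C, and of 10 housekeeping genes 0 and 1 had one in H3WT and none in H3R17C. Over all 21755 protein-coding genes, 3571 and 1990 had one in H3WT and 628 and 908 in H3R17C, so lower counts in H3R17C were not particular to these genes. Peaks of a tagged histone do not report expression, so these gene lists could not check the labelled cell type. Over all tested starts 15.5% were lower and 1.57% higher, and with 1 to 4 tested genes in each of these lists a single call says nothing about the list. Among the 10 endothelial and blood genes 1 of 3 tested start signals was lower in H3R17C, that of Cd34, a surface protein of blood and vessel progenitors (0.559 and 0.425 against 0 in both, adjusted p = 0.000232). Among the 18 Polycomb genes 1 of 4 tested was lower, that of Phf1, an accessory subunit of the complex (0.529 and 0.576 against 0 in both, adjusted p = 0.000197). Krt8, an epithelial keratin, and Sox6, a cartilage regulator, were lower as 1 of 2 epithelial and 1 of 3 cartilage genes tested (adjusted p = 0.0252 and 0.0179). All of these lower starts were tested because both H3WT lists had a peak there, and both H3R17C lists were at 0. Their adjusted p follows in part from that choice, and over starts called in any list limma called 0 in each direction.

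None of the tested genes for muscle (1), fat (1), bone (2) or neural cells (2) passed the test, nor did the mesenchymal gene tested, Eng. Of the list of H3 arginine enzymes and readers, the genes tested were Padi2 and Padi6, of the family of deiminases that turn arginine into citrulline, and neither passed (adjusted p = 0.201 and 0.117), while no methyltransferase or reader gene was tested. Carm1, the methyltransferase of arginine 17, had a start signal of 0 and 0.397 in H3WT and 0 and 0.525 in H3R17C and was not tested. Of 81 histone genes 3 were tested and none passed, and no start of the 39 Hox genes or the 10 chaperone genes could be tested. Among 365 zinc finger genes 23 were tested, of which 2, Zfp362 and Zfp532, were lower and 1, Zfp598, was higher, beside 15.5% and 1.57% over all tested starts. Among 1093 olfactory receptor genes 15 were tested and 1, Olfr373, was lower, and none of 327 vomeronasal receptor genes could be tested. The median log2 difference was -0.64 for the zinc finger genes and -0.92 for the olfactory receptors, beside -0.94 over all tested genes.

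The 2 genotypes shared many positions. The top peaks of the H3R17C lists were overlapped by any peak of the other H3R17C list in 47.4% and 48.8% of cases, and those of H3WT by any peak of the other H3WT list in 66.9% and 71.2%. The H3WT lists overlapped 63.2% to 74.6% of the H3R17C top peaks, and the H3R17C lists overlapped 57.3% to 64.8% of those of H3WT. A list that covers more of the genome overlaps more of any other list, and the H3WT lists covered 8.10% and 5.11%.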

How the data were processed

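Single-end CUT&RUN reads were aligned by the authors to mm10 with Rsubread, and peaks were called in each sample by SEACR 1.3 (stringent, normalised, threshold 0.01), according to the methods of the study. The deposited lists hold, for each peak, a total and a maximum signal in whole numbers without scaling for depth. Handling of duplicates is not given in the sources used here, and no read totals were used, so no counting interval is given and precision rests on 2 independent lists per genotype. The samples with IgG or anti-H3K4me3 were not used here.

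Sample titles gave genotype, antibody and replicate. Identical lists within a group counted as 1. The study calls replicates of this assay biological, but the labels do not say whether they came from separate cultures, so p-values measure only the spread between these lists, which may be technical. Peaks were placed on GENCODE annotation of GRCm38 (53843 genes, of which 21755 protein coding, minimum overlap 1 bp). List measures were compared by exact permutation tests (two-sided), adjusted by the Benjamini-Hochberg method over 8 measures. Signal in start windows and in 10 kb bins was divided by its median over windows called in all 10 anti-HA lists and fitted as log2(scaled signal + 0.25), so that folds of weak windows are understated. Chromosome shares were fitted as log2 percent, with the spread of each chromosome drawn toward that of all 20 of the same lists. The fits used limma 3.58.1 in R 4.3.3 (lmFit and eBayes, with trend for signal) with 5 genotypes sharing 1 estimate of the spread and an adjusted p threshold of 0.05. Those for signal had been run on simulated data with the same normal noise in every window. The simulated data had no windows without a peak, so they do not check calls between a peak and none. The named starts were the 10 lowest p in each direction, the 10 of each genotype called in both of its lists alone with the highest lower value (all 14 are given for H3R17C, the last 4 named after their values were seen), the 5 highest of each genotype, the highest bin of each list and the gene lists. The members, lists and tests were chosen with earlier results of these data known. The alternatives covered the number and ranking of peaks, peak centres, window size, scaling, pseudocount, filters, the samples in the fit, a replicate block and leaving out each list. Those for chromosome 14, for whole genes and the limma fit of chromosome shares against the other mutants were chosen after seeing the data.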

Additional observations from a re-analysis of the deposited data

How the results depend on the processing

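Of the differences between list means, those in intergenic share, H3K27me3 overlap and the shares of chromosomes 13 and 14 kept their sign under every alternative run. With only peak centres placed, the start-site difference became 0.746 and the gene-body difference -4.64 percentage points, and at equal covered length that of chromosome 8 became -0.108. The difference in GC content (0.2 points) became -0.3 with all peaks, -0.4 with the top 5000, -1.6 at equal covered length, -0.3 with the upper 50% of peaks and -0.2 ranked by maximum signal. Leaving out each list gave differences of -21.7 to -10.6 for starts, 1.78 to 7.56 for gene bodies, 8.09 to 14.9 for intergenic peaks, -5.77 to -1.96 for H3K27me3 overlap, -1.5 to 1.9 for GC content (-0.9 without H3WT replicates 1 and 2, 1.3 without H3WT replicate 3, -1.5 without H3R17C replicate 3), 2.75 to 4.47 for chromosome 8, -2.57 to -1.62 for chromosome 13 and -3.36 to -2.48 for chromosome 14.

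Starts called in H3R17C alone numbered 81 with all peaks, 2 with the top 5000, 289 at equal covered length, 48 with the upper 50%, 67 with a 5 kb window, 5 with a 250 bp window and 27 to 206 without a list (118 without H3R17C replicate 3). Those in H3WT alone numbered 472 with the top 5000, 86 at equal covered length and 974 to 2718 without a list (1103 without H3R17C replicate 3). Without a list the rule is looser, so both counts can only stay equal or rise. Start signal by limma (357 lower, 36 higher) gave 1709 lower as deposited, 1 lower and 20 higher with quantile normalization, 0 and 0 for windows called in every list or in any list, 549 and 72 with H3WT and H3R17C alone, 629 and 6 with equal numbers of peaks, and 231 to 1071 lower and 28 to 375 higher without a list (602 lower without H3WT replicates 1 and 2, 283 and 285 without H3R17C replicate 3). Over windows called in any list, an unadjusted p under 0.05 was reached by 652 lower and 75 higher starts. Plekha6 turned to 0.057 with quantile normalization. For 10 kb bins (910 lower, 891 higher) the counts were 18348 lower as deposited, 4 and 130 for bins called in every list, 3068 and 278 with equal numbers of peaks, and 850 to 5199 lower and 629 to 7855 higher without a list (2884 lower without H3WT replicates 1 and 2, 5338 higher without H3R17C replicates 1 and 2, 1039 higher without H3WT replicate 3, 1139 lower without H3R17C replicate 3). Bins gave 0 and 0 with quantile normalization (unadjusted 2084 and 2707), for bins called in any list (2922 and 2049), without a trend (3551 and 2566) and with H3WT and H3R17C alone (3344 and 3297). Chromosomes gave 2 to 6 lower and 1 to 2 higher without a list. The cause of these changes was not tested.

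With the replicate number as a block, limma gave 290 lower and 31 higher starts, 779 and 799 bins, and 6 and 3 chromosomes. Same-numbered lists of H3WT and H3R17C did not deviate together in window signal (correlation -0.0059 over starts and 0.0535 over bins). In all 5 genotypes, however, replicate 3 had a larger share of top peaks on chromosomes 8 and 11 than replicates 1 and 2. On the X chromosome it had a smaller share in each genotype. Whether same-numbered lists share more than a number was not tested further. Read depth was not used. Blocks below the lowest total signal of a list were not kept in it, so a window without a peak may still hold weaker signal.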
